A study of Rattus norvegicus with 20 samples.

Results

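The comparison described here sets the inguinal white adipose tissue (iWAT, a subcutaneous fat depot) of 5 Food matched obese rats against that of 5 Lean rats, which are 10 of the 20 libraries in the series. The libraries were taken by their titles. Their titles and the study's methods describe the Food matched animals as obese rats on restricted food, and so they were treated, although the deposited phenotype field calls these samples lean. All animals were male ZSF1 rats. Obese rats of this strain carry mutated leptin receptor alleles from both parental lines (ZSF1-Lepr fa Lepr cp/Crl) and so lack normal leptin signalling, whereas Lean rats of the same strain do not carry this combination. All groups were kept on Purina 5008 chow. Food matched animals received drug-free chow in the amount that the group given Cmpd 1, a protein kinase C inhibitor in the chow, had eaten in the week before, so their intake was matched to the Cmpd 1 group and not to the Lean group. The Obese group, 5 further rats with free access to chow, was used for a direct comparison with the Food matched group. Genotype and food allowance both differ between Lean and Food matched rats, and their effects cannot be told apart. The model is a germline receptor defect, present in every tissue from birth.

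White adipose tissue stores triglyceride in adipocytes and releases fatty acids by lipolysis, which insulin restrains and catecholamines stimulate through beta-adrenergic receptors. In obesity, macrophages gather around dying adipocytes, take up lipid and turn on lysosomal and lipid-handling genes, and such cells are known as lipid-associated macrophages. Adipocytes of obese animals are also known for lower insulin-stimulated glucose uptake and a changed secretion of adipokines, the hormones of fat. Leptin, an adipokine, signals fat stores to the brain, and an animal without its receptor overeats.

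The count tables held 50604956 to 68048796 reads per Lean library and 54649679 to 74784655 per Food matched library. Of 32545 genes, 17653 had reads in more than 10 of the 20 libraries and were fitted in 1 edgeR model of the 4 groups. Levels are given as CPM, the reads of a gene scaled to the same library size for every rat with TMM. A gene was called differentially expressed (DEG) where edgeR's quasi-likelihood test gave a Benjamini-Hochberg adjusted p under 0.05 together with a change beyond 1.5-fold. The first principal component of the 10 libraries took 67.2% of the variance and placed Lean rats 1 and 2 at −67.8 and −78.7, the other Lean rats between −27.0 and −13.3, and the Food matched rats between 31.5 and 48.4. Food matched rat 5 lay nearest to the Lean rats on this component.

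**Figure D1:**
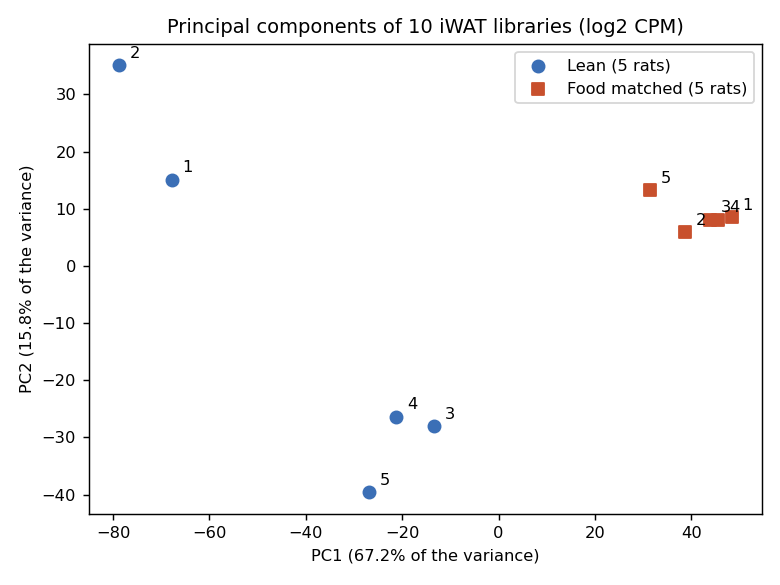
Principal components of log2 CPM over the 1000 most variable genes in 10 iWAT libraries, with PC1 (67.2% of the variance) on the x axis and PC2 (15.8%) on the y axis. Points are rats, numbered within their group, and all 5 Food matched rats lie above 31 on PC1 while all 5 Lean rats lie below −13.

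Some Lean libraries held transcripts of neighbouring tissues. Summed over 17 skeletal muscle genes, the level was 4145 and 7324 CPM in Lean rats 1 and 2, 35.6 to 37.2 CPM in the other Lean rats, 15.6 to 19.3 CPM in Food matched rats 1 to 4 and 121 CPM in Food matched rat 5. Mesothelial genes (6 genes) summed to 298 and 154 CPM in Lean rats 1 and 2, 11.2 to 23.5 CPM in the other Lean rats and 3.52 to 11.1 CPM in Food matched rats. Genes of glandular and skin epithelium (9 genes) summed to 187 CPM in Lean rat 2, 14.0 to 36.1 CPM in the other Lean rats and 6.79 to 9.67 CPM in Food matched rats. Lean rats 1 and 2 stood apart in muscle and mesothelial genes, and the DEGs of Food matched versus Lean animals were also called without them.

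**Figure D2:**
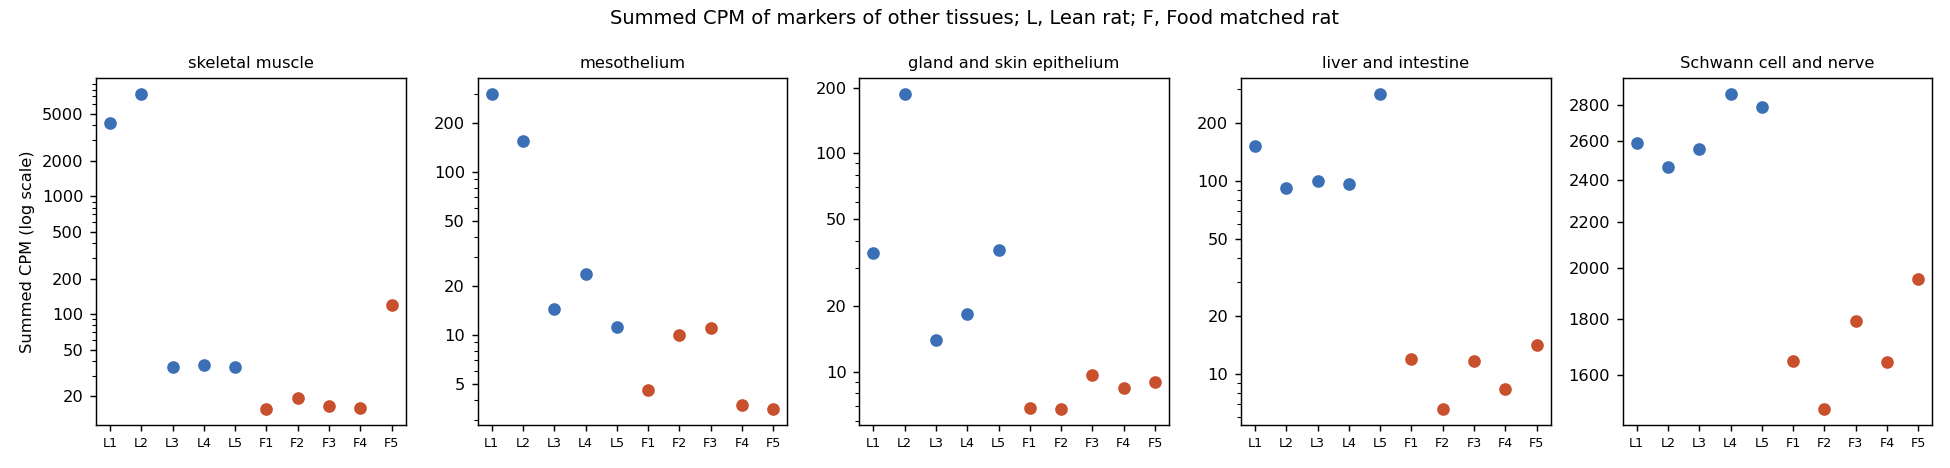
Summed CPM (y axis, log scale) of 17 skeletal muscle, 6 mesothelium, 9 gland and skin epithelium, 6 liver and intestine and 9 Schwann cell genes in each rat (x axis; L, Lean; F, Food matched). Lean rats 1 and 2 carry muscle sums of 4145 and 7324 CPM, and Lean rat 5 has the highest liver and intestine sum at 281 CPM.

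Lepr, which encodes the leptin receptor (rn6 chromosome 5, 120503475 to 120682283), was read first. Counts per gene do not show which receptor alleles a rat carries, so they cannot verify the labels. Its level in Lean rats 1 to 5 was 7.46, 12.0, 2.95, 6.93 and 8.96 CPM, and in Food matched rats 1 to 5 it was 1.84, 2.32, 1.69, 1.41 and 1.83 CPM. Lean rat 3 had the lowest Lean value, still above every Food matched value. Means were 7.66 ± 3.28 CPM for Lean and 1.82 ± 0.328 CPM for Food matched animals (± is the SD over 5 rats here and throughout). The log2 fold change was −2.07, with a standard error of 0.24 and an adjusted p of 4.6e-07 from edgeR. The Obese group, at 1.56 ± 0.260 CPM, lay at the Food matched level. Lep, the leptin gene itself, was at 3427 ± 549 CPM in Lean and 5225 ± 595 CPM in Food matched rats (log2 fold change 0.61, adjusted p = 6.7e-05, edgeR), and at 0.47 without Lean rats 1 and 2, where it was no longer a DEG.

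Across all genes, 4467 were DEGs of Food matched versus Lean animals. Of these 2207 were higher (12.5% of the genes tested) and 2260 lower (12.8%) in Food matched animals. The counts of the gene lists below are to be read against these shares, and a count near them says little about its list. In 3384 of the 4467 the values of the 5 Food matched and the 5 Lean rats did not overlap, and over all genes tested the Food matched rats were all above the Lean rats in 19.2% and all below in 17.4%. Changes over 4-fold were found for 615 higher and 646 lower DEGs. Without Lean rats 1 and 2, 3932 DEGs were called, 2117 higher (12.0%) and 1815 lower (10.3%). This kept 1925 of the higher and 1675 of the lower DEGs with their direction, 80.6% of the 4467 together, while 10 genes were called in the opposite direction. In bulk tissue a lower level can come from fewer cells of a type or from less RNA per cell, and these cannot be told apart here.

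**Figure D3:**
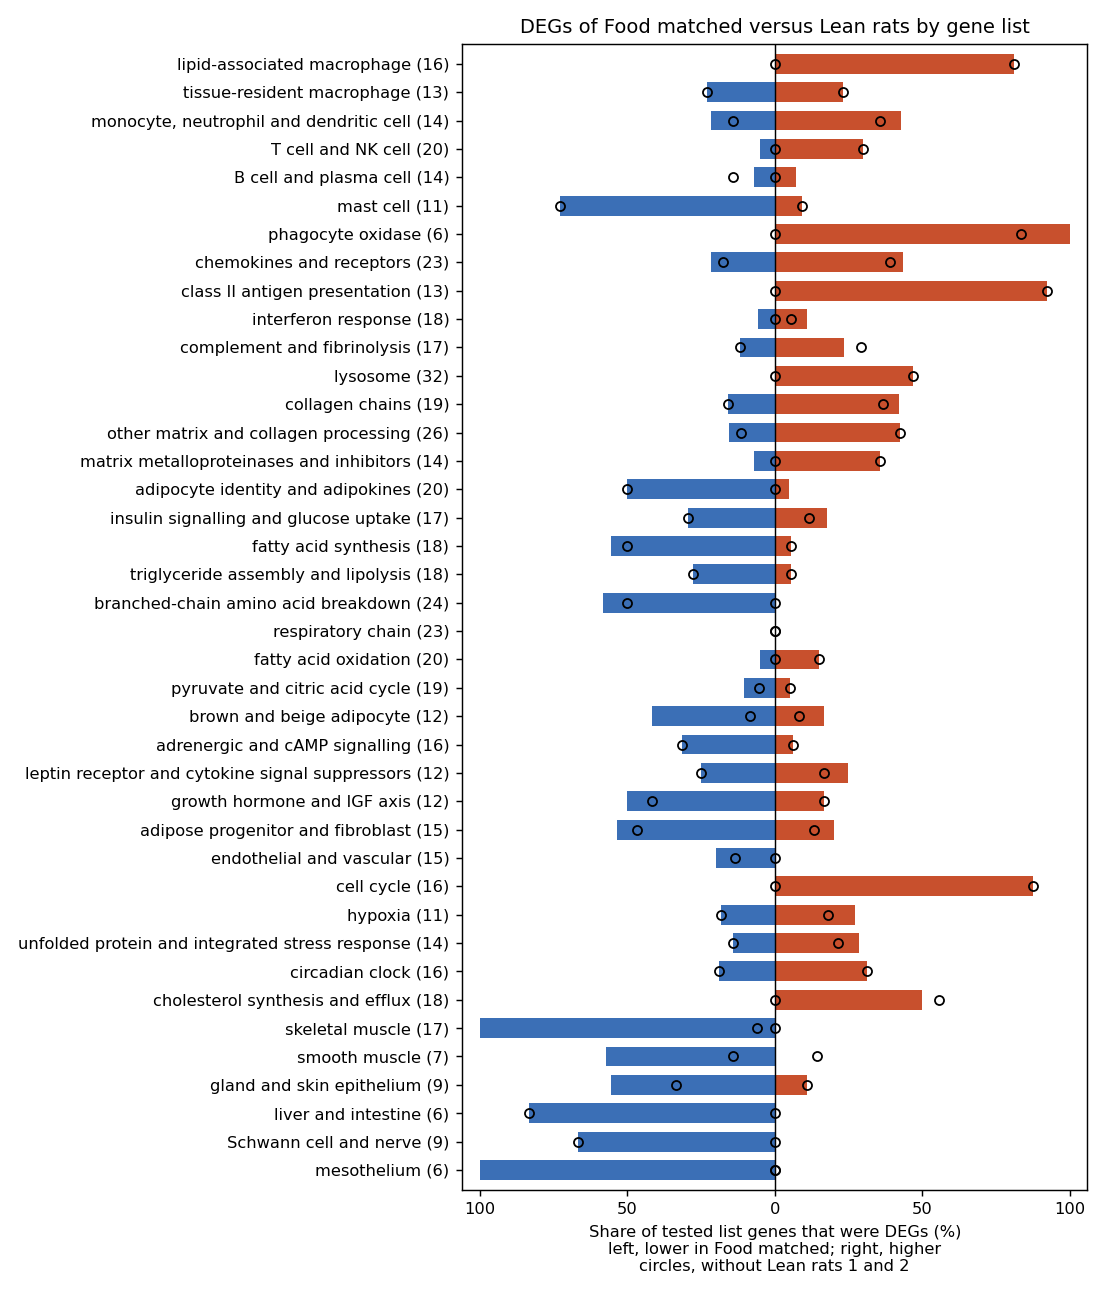
Share of the tested genes of each list (number tested in parentheses) that were DEGs of Food matched versus Lean rats, lower ones to the left and higher ones to the right (x axis, percent), with open circles for the fit without Lean rats 1 and 2. Over all genes tested 12.5% were higher and 12.8% lower, and the skeletal muscle and mesothelium bars shrink from 17 and 6 lower genes to 1 and 0.

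Most listed genes of lipid-associated macrophages were higher in Food matched animals. Of 16 listed genes 13 were higher and 0 lower in Food matched animals, with a median log2 fold change of 2.43, against −0.02 over all genes tested. The largest change was that of Mmp12, which encodes macrophage elastase (rn6 chromosome 8, 5606592 to 5616493). Mmp12 was at 0.196, 0.495, 1.51, 1.59 and 0.520 CPM in Lean rats 1 to 5 and at 116, 132, 81.7, 128 and 55.5 CPM in Food matched rats 1 to 5. The groups lay far apart, with Food matched rat 5 the lowest of its group. The log2 fold change was 6.90 (standard error 0.42, adjusted p = 1.6e-10, edgeR), and 6.43 without Lean rats 1 and 2. Cd68, a lysosomal membrane protein used as a macrophage marker (rn6 chromosome 10, 56268720 to 56270640), was at 59.4, 58.7, 86.9, 94.9 and 66.0 CPM in Lean rats 1 to 5. In Food matched rats 1 to 5 it was at 400, 439, 374, 357 and 285 CPM, again lowest in rat 5 and above every Lean rat, which gave a log2 change of 2.34 (standard error 0.16, adjusted p = 4.4e-10, edgeR). Trem2, the lipid-sensing receptor of these macrophages, was at 29.0 ± 7.07 CPM in Lean and 175 ± 26.6 CPM in Food matched rats. Gpnmb, a glycoprotein of lysosome-rich phagocytes, was at 359 ± 189 and 3861 ± 732 CPM, and Spp1, which encodes osteopontin, was at 74.3 ± 59.3 and 1232 ± 388 CPM. Itgax, which encodes the integrin chain CD11c, rose 9.80-fold. Within the Lean group, rats 3 and 4 had the highest values of Mmp12, Cd68, Gpnmb and Spp1. The members that did not pass as DEGs were Ctsb, Apoe and Cd9, with log2 fold changes of 0.38, 0.48 and 0.35.

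Genes that mark macrophages resident in lean tissue did not move in 1 direction. Of 13 tested genes 3 were higher and 3 lower, with a median log2 fold change of 0.11. Mrc1, the mannose receptor, was at 250 ± 32.7 CPM in Lean and 713 ± 136 CPM in Food matched rats, and Siglec1, a sialic acid-binding receptor, was at 59.3 ± 9.74 and 188 ± 44.9 CPM. F13a1, which encodes a coagulation factor subunit made by resident macrophages, was lower, at 253 ± 22.0 and 122 ± 49.5 CPM, as was Cd163, the haemoglobin scavenger receptor, at 191 ± 14.8 and 119 ± 29.6 CPM. C1qa, C1qb and C1qc, complement genes that macrophages express, were not DEGs, at −0.00, −0.20 and −0.18 on the log2 scale.

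Other genes of phagocytes and antigen presentation were higher in Food matched animals. All 6 genes of the phagocyte oxidase, the enzyme that makes superoxide, were DEGs. Cybb, its catalytic subunit, was at 105 ± 15.1 CPM in Lean and 342 ± 60.7 CPM in Food matched rats, and Cyba, its membrane partner, was at 33.8 ± 2.62 and 115 ± 13.1 CPM. Without Lean rats 1 and 2, 5 of the 6 remained DEGs and Ncf4 did not. Of 13 genes of class II antigen presentation, 12 were higher and 0 lower, with a median log2 fold change of 1.24. Cd74, the invariant chain of class II molecules (rn6 chromosome 18, 56071478 to 56080849), was at 812, 686, 803, 706 and 781 CPM in Lean rats 1 to 5 and at 1629, 1794, 1682, 1997 and 1849 CPM in Food matched rats 1 to 5. Every Food matched value was above every Lean value, and here rat 5 was not the lowest. The log2 fold change of Cd74 was 1.24 (standard error 0.10, adjusted p = 2.4e-09, edgeR). RT1-Bb and RT1-Ba, the chains of a rat class II molecule, were at log2 fold changes of 1.37 and 1.21, although class II genes are close relatives and reads could be split among them.

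Among 14 genes of monocytes, neutrophils and dendritic cells 6 were higher and 3 lower. Itgam, the integrin chain CD11b, was at 55.3 ± 8.54 CPM in Lean and 214 ± 41.9 CPM in Food matched rats, and Fcgr1a, a high-affinity antibody receptor, was at 28.3 ± 3.27 and 84.9 ± 10.8 CPM. Mpo, which encodes myeloperoxidase of neutrophil granules, went the other way, at 497 ± 37.7 CPM in Lean and 98.9 ± 16.4 CPM in Food matched rats (log2 fold change −2.33, standard error 0.11, adjusted p = 5.9e-12, edgeR). The neutrophil calprotectin genes S100a8 and S100a9 were near 1 CPM in both groups, with log2 fold changes of −0.29 and −0.11. Among 20 T cell and NK cell genes 6 were higher and 1 lower. Cd4, a coreceptor that rat macrophages also carry, was at 154 ± 13.1 and 433 ± 49.1 CPM, and Icos, a costimulatory receptor of activated T cells, was at 1.17 ± 0.270 and 4.61 ± 1.29 CPM. The T cell receptor component Cd3e was at 1.79 ± 0.383 and 2.46 ± 0.459 CPM with a change of 0.46 on the log2 scale (standard error 0.21), and was not a DEG. Among 14 B cell and plasma cell genes 1 was higher and 1 lower, all at low levels, with the whole list summing to 15.2 to 16.4 CPM in Lean and 12.5 to 16.9 CPM in Food matched rats. Among 18 interferon response genes 2 were higher and 1 lower, with a median log2 fold change of −0.13.

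Mast cell genes were lower in Food matched animals. Of 11 listed genes 8 were lower and 1 higher, with a median log2 fold change of −1.13. Cpa3, the carboxypeptidase of mast cell granules (rn6 chromosome 2, 105016626 to 105047984), was at 77.0, 64.8, 60.9, 68.4 and 69.9 CPM in Lean rats 1 to 5. In Food matched rats 1 to 5 it was at 13.3, 30.9, 23.7, 10.5 and 23.2 CPM, so that every Food matched value lay below every Lean value with a spread among them of about 3-fold. The log2 fold change was −1.75 (standard error 0.24, adjusted p = 3.2e-06, edgeR). The mast cell proteases Cma1 and Mcpt1 had log2 fold changes of −1.79 and −1.59, Hdc, which makes histamine, −1.45, and Kit, the stem cell factor receptor, −0.71. Il1rl1, the receptor for interleukin-33, was the member that was higher, at 19.9 ± 9.55 and 69.0 ± 42.8 CPM, with overlapping groups. The count of 8 lower genes was the same without Lean rats 1 and 2.

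Of 23 chemokine and receptor genes 10 were higher and 5 lower, against 12.5% and 12.8% over all genes tested. Without Lean rats 1 and 2 the counts were 9 and 4. The higher ones included the macrophage chemokines Ccl3 (0.814 ± 0.187 CPM in Lean and 4.78 ± 1.18 CPM in Food matched rats) and Ccl4 (1.14 ± 0.248 and 5.39 ± 0.678 CPM) and the receptor Ccr1 (34.9 ± 7.30 and 119 ± 24.7 CPM). The lower ones included Cxcl12, a chemokine of stromal cells, at 409 ± 38.8 and 197 ± 42.8 CPM, and Cxcl13, which draws B cells, at 56.2 ± 14.6 and 9.40 ± 4.00 CPM. Ccl2, the monocyte attractant, was at 20.7 and 29.3 CPM on average and was not a DEG. Of 17 complement and fibrinolysis genes 4 were higher and 2 lower.

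Lysosomal genes were higher where they changed. Of 32 tested genes 15 were higher and 0 lower, the same count without Lean rats 1 and 2, and in 28 of the 32 all Food matched rats were above all Lean rats, against 19.2% over all genes tested. Lipa, the lysosomal acid lipase that frees cholesterol and fatty acids from engulfed lipid (rn6 chromosome 1, 252816527 to 252849904), was at 88.1, 90.4, 145, 152 and 99.9 CPM in Lean rats 1 to 5 and at 713, 875, 679, 662 and 573 CPM in Food matched rats 1 to 5. Its lowest Food matched value was above its highest Lean value, with a change of 2.60 on the log2 scale (standard error 0.18, adjusted p = 4.3e-10, edgeR). Ctsd, the protease cathepsin D (rn6 chromosome 1, 215541542 to 215553451), was at 1315, 1226, 1501, 1503 and 1302 CPM in Lean rats 1 to 5 and at 3897, 4016, 3398, 3338 and 2566 CPM in Food matched rats 1 to 5, which gave a log2 change of 1.33 (standard error 0.11, adjusted p = 5.7e-09, edgeR). Npc1, the cholesterol exporter of lysosomes, was at 47.7 ± 2.82 and 96.7 ± 9.44 CPM, and Gusb, a glucuronidase, had a log2 fold change of 0.87. Atp6v0d2, a proton pump subunit of macrophages and osteoclasts, was at 0.441 ± 0.352 and 9.77 ± 2.85 CPM. The general membrane proteins Lamp1 and Lamp2 had log2 fold changes of −0.09 and 0.17 and were not DEGs. The lists share Lipa, Cd68, Cd63, Ctsb and Atp6v0d2 with the lipid-associated macrophage genes, so both counts rest in part on the same measurements. All lists together held 649 entries of 624 distinct genes. Other lists thus share members too, among them Mmp12, Cfd, Lipe and Plin1, and their counts are not separate results.

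Many lysosomal promoters carry an E-box, CACGTG, within the longer palindrome TCACGTGA, to which the transcription factor TFEB and its relatives bind. RefSeq promoters of the GRCr8 build, 250 bases before to 50 bases after the start, were found for 24 of the 32 lysosome genes. TCACGTGA was in 3 of these 24 (12.5%) and in 1 of the 12 that were DEGs (8.33%), against 0.777% of all 33469 promoters. Its other holders, Lamp1 and Mcoln1, were not DEGs. CACGTG, which TCACGTGA contains, was in 25% of the 24, 16.7% of the 12 and 6.42% of all. A listed gene was given its first promoter entry only, whereas the 33469 include every entry, so the units are not quite alike. Both read the same on either strand. The DEG with the longer motif was Ctsd, and its 250 bases before the start (GRCr8 chr1:206968822-206969071, minus strand) are shown because it is the DEG of this list that holds the motif, which is in capitals and begins 11 bases before the start.
Ctsd: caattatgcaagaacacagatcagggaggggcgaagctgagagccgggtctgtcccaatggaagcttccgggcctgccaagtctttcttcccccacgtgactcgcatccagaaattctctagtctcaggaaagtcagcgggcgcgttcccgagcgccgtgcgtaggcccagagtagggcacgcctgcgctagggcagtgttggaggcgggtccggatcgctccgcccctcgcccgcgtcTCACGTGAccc
A match describes these letters and is not evidence of binding, and the gene for the factor, Tfeb, was at 18.2 and 26.1 CPM on average with a log2 fold change of 0.52, which did not pass the fold threshold.

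**Figure D4:**
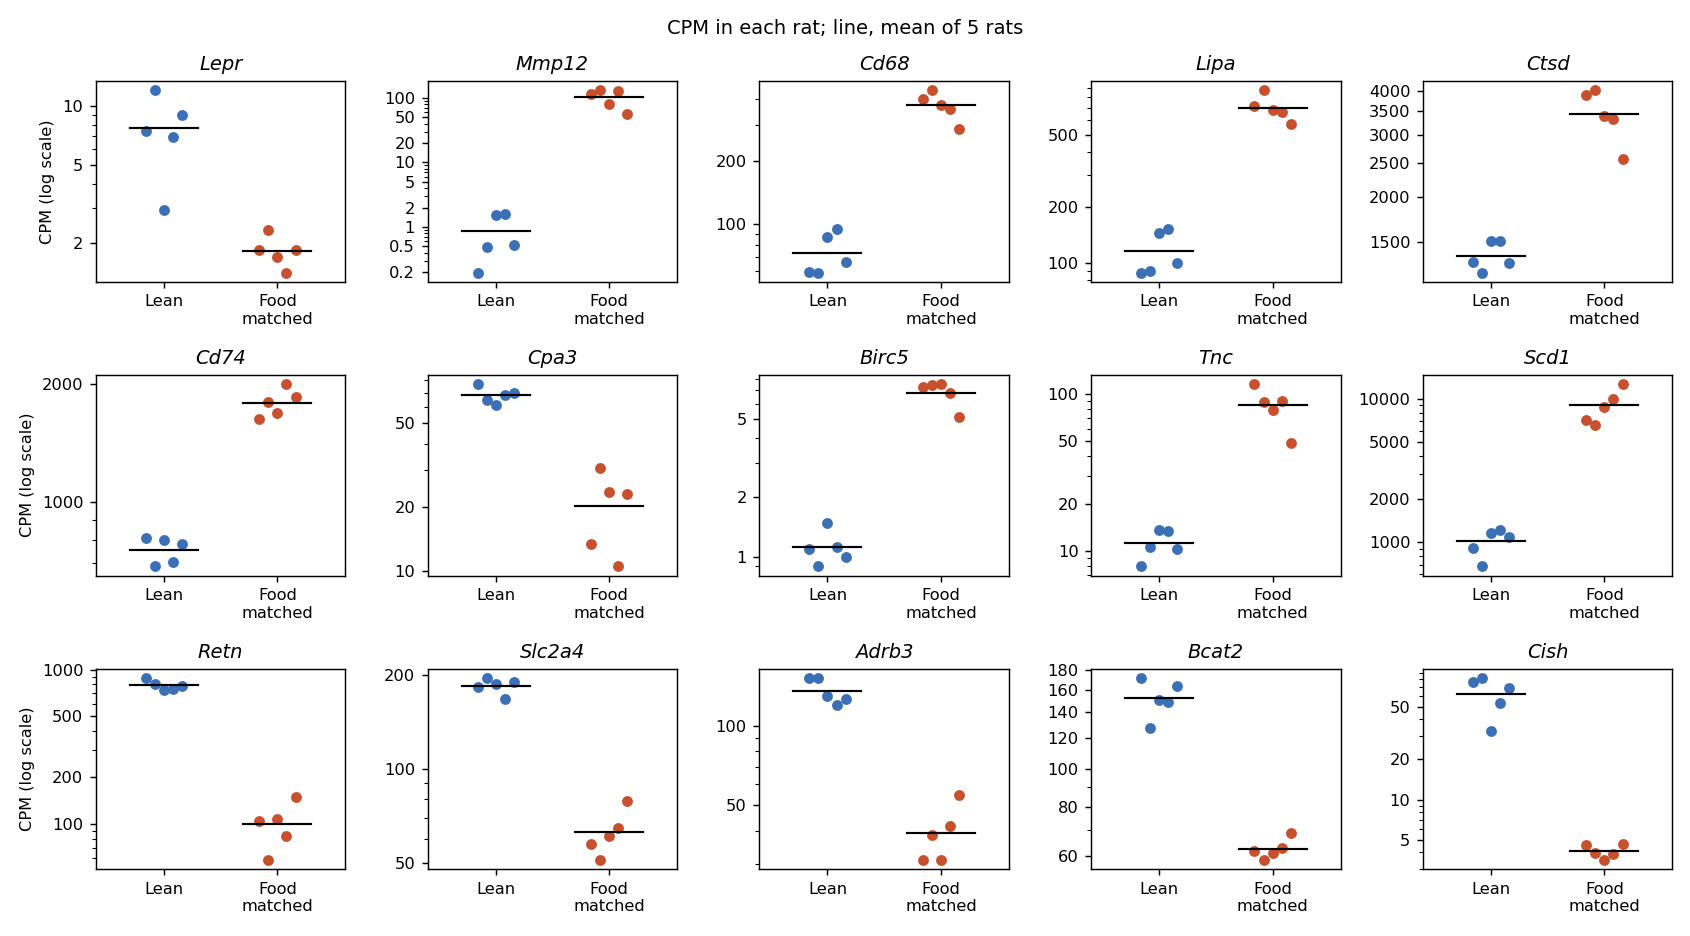
CPM (y axis, log scale, its own range in each panel) of 15 genes in each of 5 Lean and 5 Food matched rats (x axis), with a line at the mean of each group. The groups do not overlap in any panel, but the 15 genes were chosen among the DEGs of this comparison. Over all genes tested the Food matched rats were all above the Lean rats in 19.2% and all below in 17.4%. Food matched rat 5 is the lowest of its group for Mmp12, Cd68, Lipa, Ctsd, Birc5 and Tnc.

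Cell cycle genes were higher in Food matched animals. Of 16 tested genes 14 were higher and 0 lower, with a median log2 fold change of 2.06. Birc5, which encodes survivin of dividing cells (rn6 chromosome 10, 106856097 to 106864413), was at 1.10, 0.891, 1.48, 1.12 and 0.994 CPM in Lean rats 1 to 5 and at 7.25, 7.42, 7.55, 6.80 and 5.13 CPM in Food matched rats 1 to 5, which gave a log2 change of 2.62 (standard error 0.19, adjusted p = 8.1e-10, edgeR). All Food matched values were above all Lean values. Mki67, the proliferation marker, was at 8.69 ± 2.68 and 56.9 ± 11.0 CPM, Top2a, a topoisomerase of replicating cells, was at 6.02 ± 1.53 and 38.4 ± 5.98 CPM, and Mcm5, part of the replicative helicase, was at 3.81 ± 1.04 and 21.5 ± 3.32 CPM. Which cells carried these transcripts cannot be read from bulk tissue.

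Matrix genes were more often higher than lower. Of 19 collagen chain genes 8 were higher and 3 lower, against 12.5% higher and 12.8% lower over all genes tested. The lower counts of the lists in this paragraph lie near or under the latter share. The collagen VI chains Col6a1, Col6a2 and Col6a3, a pericellular collagen of fat, were at log2 fold changes of 0.99, 0.75 and 1.19, and Col6a3 was at 588 ± 158 and 1346 ± 193 CPM. The fibrillar chains Col3a1 and Col1a1 were at 4468 ± 758 and 7577 ± 1234 CPM and at 1524 ± 374 and 2661 ± 613 CPM. Col4a1 and Col4a2, the abundant chains of the basement membrane, had log2 fold changes of 0.09 and 0.13 and were not DEGs, while Col4a5, another chain of that family, fell from 20.3 to 3.57 CPM on average. Of 26 other matrix genes 11 were higher and 4 lower. Tnc, which encodes tenascin C of remodelling tissue (rn6 chromosome 5, 79789671 to 79874671), was at 7.99, 10.7, 13.6, 13.5 and 10.4 CPM in Lean rats 1 to 5 and at 115, 88.1, 78.9, 90.3 and 48.2 CPM in Food matched rats 1 to 5. The Food matched values were all above the Lean values and rat 5 was again lowest, with a change of 2.91 on the log2 scale (standard error 0.24, adjusted p = 4e-09, edgeR). Bgn, the proteoglycan biglycan, was at 311 ± 36.3 and 820 ± 74.7 CPM, Fn1, fibronectin, at 855 ± 180 and 2392 ± 463 CPM, and Ctgf, a matricellular growth factor, at 39.9 ± 5.73 and 136 ± 43.8 CPM. Fbn1, which encodes fibrillin, fell from 1077 to 668 CPM on average, and Has2, a hyaluronan synthase, from 8.13 to 3.95 CPM. Of 14 metalloproteinase and inhibitor genes 5 were higher and 1 lower. Timp1, an inhibitor, was at 36.8 ± 6.67 and 161 ± 40.4 CPM and the gelatinase Mmp9 at 1.88 ± 1.04 and 18.3 ± 3.93 CPM.

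Genes of the adipocyte itself were lower in Food matched animals where they changed, with Lep as the exception. Of 20 genes 10 were lower and 1 higher, with a median log2 fold change of −0.57. Retn, which encodes the adipokine resistin (rn6 chromosome 12, 2201891 to 2204249), was at 884, 809, 733, 744 and 783 CPM in Lean rats 1 to 5 and at 104, 58.1, 107, 83.2 and 150 CPM in Food matched rats 1 to 5. The groups did not approach each other, with a change of −2.98 on the log2 scale (standard error 0.19, adjusted p = 2.3e-10, edgeR). Adipoq, which encodes adiponectin, an insulin-sensitizing adipokine, was at 6730 ± 299 and 3306 ± 425 CPM. Rbp4, the retinol carrier, was at 1300 ± 132 and 369 ± 59.8 CPM, Cfd, the protease adipsin, at 2852 ± 545 and 789 ± 147 CPM, and Rarres2, which encodes chemerin, at 655 ± 58.8 and 293 ± 31.7 CPM. Fabp4, a carrier of fatty acids within the adipocyte, was at 8472 ± 912 and 8778 ± 885 CPM (log2 fold change 0.05, standard error 0.08), and Lpl, lipoprotein lipase, at 9434 ± 1774 and 9277 ± 837 CPM (−0.02, standard error 0.10). Pparg, the master regulator of fat cells, was at 224 ± 25.8 and 169 ± 19.8 CPM, a log2 fold change of −0.41 below the fold threshold. Abundant adipocyte genes thus included some that fell and some that differed by less than the threshold.

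Of 17 insulin signalling and glucose genes 5 were lower and 3 higher, against 12.8% lower and 12.5% higher over all genes tested. Without Lean rats 1 and 2 the counts were 5 and 2, so the higher count lies near the share over all genes. Slc2a4, the gene of GLUT4, the transporter that insulin brings to the cell surface (rn6 chromosome 10, 56552983 to 56558487), was at 183, 196, 187, 168 and 190 CPM in Lean rats 1 to 5 and at 57.8, 51.1, 61.0, 65.0 and 79.2 CPM in Food matched rats 1 to 5. No Food matched value reached the Lean values, and the log2 fold change was −1.56 (standard error 0.10, adjusted p = 2.7e-10, edgeR). Irs1, the docking protein of the insulin receptor, was at 36.9 ± 8.45 and 17.8 ± 2.90 CPM and Akt2, the kinase of insulin action, at 316 ± 23.5 and 187 ± 19.0 CPM. Tbc1d4, its substrate in glucose transport, fell by 0.77 on the log2 scale. Insr, the receptor, was at 61.1 and 48.3 CPM on average, with a log2 fold change of −0.34. Slc2a1, the basal glucose transporter, was higher, at 10.7 ± 1.79 and 17.0 ± 2.41 CPM.

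Fatty acid synthesis genes were lower, with a single large increase. Of 18 genes 10 were lower and 1 higher. Srebf1, the transcription factor that drives the pathway, was at 620 ± 47.6 and 303 ± 21.4 CPM. Mlxipl, a glucose-sensing transcription factor, was at 51.3 and 25.9 CPM on average, and Fasn, the synthase, at 1283 ± 283 and 720 ± 155 CPM. Acaca and Acacb, the carboxylases that supply malonyl-CoA, had log2 fold changes of −0.97 and −1.09. Scd1, the desaturase that makes monounsaturated fatty acids (rn6 chromosome 1, 264160129 to 264172729), was the exception. Its level was 915, 680, 1163, 1229 and 1093 CPM in Lean rats 1 to 5 and 7126, 6566, 8733, 9920 and 12687 CPM in Food matched rats 1 to 5. Food matched rat 5 had the highest Scd1 value, and the lowest of its group for Mmp12, Cd68 and Lipa. The log2 fold change was 3.15 (standard error 0.26, adjusted p = 3e-09, edgeR). The desaturases that act on polyunsaturated fatty acids, Fads1 and Fads2, were lower, at −1.16 and −0.63. Of 18 genes of triglyceride assembly and lipolysis 5 were lower and 1 higher. Lipe, hormone-sensitive lipase, was at 1588 ± 75.5 and 849 ± 62.3 CPM and Plin1, which coats the lipid droplet, at 2562 ± 155 and 1609 ± 186 CPM. G0s2, an inhibitor of adipose triglyceride lipase, fell by 1.22 on the log2 scale. Gk, glycerol kinase, was the member that rose, from 14.8 ± 1.55 to 42.9 ± 2.89 CPM. Of 18 genes of cholesterol synthesis and efflux 9 were higher and 0 lower, among them Soat1, which esterifies cholesterol for storage in foam cells (15.3 ± 3.04 and 66.2 ± 12.0 CPM).

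Genes that break down branched-chain amino acids were lower in Food matched animals. Of 24 genes 14 were lower and 0 higher, with a median log2 fold change of −0.60, and in 20 of the 24 all Food matched rats were below all Lean rats, against 17.4% over all genes. Bcat2, the mitochondrial transaminase that starts the pathway (rn6 chromosome 1, 101554642 to 101572080), was at 172, 128, 151, 149 and 164 CPM in Lean rats 1 to 5 and at 61.5, 58.4, 61.0, 62.8 and 68.6 CPM in Food matched rats 1 to 5. The Food matched rats lay close together and well under the lowest Lean rat, with a change of −1.29 on the log2 scale (standard error 0.07, adjusted p = 5.4e-11, edgeR). The dehydrogenase subunits Bckdha and Bckdhb had log2 fold changes of −0.83 and −0.94, and Ivd, of leucine breakdown, −1.04. Without Lean rats 1 and 2 the count was 12 of 24. Respiratory chain genes differed less. Of 23 tested genes 0 were DEGs, yet in 20 of them all Food matched rats were below all Lean rats, with a median log2 fold change of −0.27 and Sdhc, a succinate dehydrogenase subunit, the lowest at −0.48. Of 20 fatty acid oxidation genes 3 were higher and 1 lower. Cpt1a, the carnitine transferase of the outer membrane, was at 58.8 ± 4.92 and 101 ± 13.6 CPM, while Cpt1b, its other form, was at 82.0 and 69.0 CPM on average and not a DEG. Of 19 genes of pyruvate and citric acid cycle metabolism 1 was higher, Pdk4, a kinase that restrains pyruvate oxidation, at 52.2 ± 16.6 and 154 ± 49.3 CPM, and 2 were lower, Pc and Pdk2, of which Pdk2 was not a DEG without Lean rats 1 and 2.

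Of 16 genes of adrenergic and cAMP signalling 5 were lower and 1 higher in Food matched animals, the adrenergic receptors Adrb3 and Adrb1 among the lower ones. Adrb3, the beta receptor of rodent adipocytes that triggers lipolysis (rn6 chromosome 16, 69003868 to 69006632), was at 152, 152, 130, 120 and 126 CPM in Lean rats 1 to 5 and at 30.9, 38.6, 30.9, 41.7 and 54.7 CPM in Food matched rats 1 to 5. The highest Food matched value, that of rat 5, was under the lowest Lean value, and the log2 fold change was −1.79 (standard error 0.16, adjusted p = 1.5e-08, edgeR). Adrb1 was at 7.58 ± 2.29 and 3.06 ± 0.705 CPM. Of 12 brown and beige adipocyte genes 2 were higher and 5 lower with all libraries, and 1 higher and 1 lower without Lean rats 1 and 2. Prdm16, a regulator of the beige program, kept its call at −1.26 and −0.95 without these rats. Cox8b, a cytochrome oxidase subunit of brown fat and muscle, reached 4.87 and 14.3 CPM in Lean rats 1 and 2 against 0.370 CPM or less in the other 8 libraries, so its lower call rests on the libraries with muscle transcripts. Ucp1, the uncoupling protein, was at most 1.29 CPM in any of the 10 libraries.

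Growth hormone and IGF genes were mostly lower where they changed. Of 12 genes 6 were lower and 2 higher, and of 12 genes of leptin signalling and its suppressors 3 were lower and 3 higher. Igf1, the growth factor itself, was at 517 ± 112 and 199 ± 42.2 CPM, Igfbp5, which binds it, at 2090 ± 92.8 and 506 ± 186 CPM, and Igf2r, a clearance receptor, at 182 ± 13.2 and 283 ± 22.1 CPM. Cish, a feedback suppressor that growth hormone and other cytokines induce through STAT5 (rn6 chromosome 8, 116054465 to 116060723), was at 76.0, 82.4, 32.9, 52.9 and 69.0 CPM in Lean rats 1 to 5. In Food matched rats 1 to 5 it was at 4.51, 3.98, 3.49, 3.92 and 4.61 CPM, a narrow range far under the lowest Lean rat, with a change of −3.93 on the log2 scale (standard error 0.34, adjusted p = 6.3e-09, edgeR). Socs2, a suppressor of the same family, fell by 0.88 on the log2 scale, whereas Socs3 was higher by 0.82 with overlapping groups. Jak2, the kinase of both receptors, was at 63.1 ± 4.86 and 103 ± 7.46 CPM.

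Stromal, vascular and stress genes gave mixed lists, to be read against 12.5% higher and 12.8% lower over all genes tested. Of 15 genes of adipose progenitors and fibroblasts 8 were lower and 3 higher. Without Lean rats 1 and 2, 7 were lower and 2 higher, and the median log2 fold change moved from −0.75 to −0.37. Dpp4 and Cd55, surface markers of early progenitors, were at 46.4 ± 15.4 and 9.50 ± 6.16 CPM and at 63.0 and 25.3 CPM on average, and Thy1, a fibroblast surface protein, was at 20.3 ± 5.54 and 83.6 ± 21.5 CPM. The general progenitor receptor Pdgfra was at 188 and 180 CPM on average and was not a DEG. Of 15 endothelial and vascular genes 3 were lower and 0 higher, and 2 were lower without Lean rats 1 and 2. Among the lower ones were Angpt1 (30.7 ± 5.34 and 10.8 ± 1.48 CPM) and its receptor Tek (145 ± 8.12 and 83.6 ± 8.46 CPM). Kdr and Cdh5, defining endothelial genes, had log2 fold changes of −0.11 and −0.31. Of 11 hypoxia genes 3 were higher and 2 lower, and 2 and 2 without Lean rats 1 and 2. Egln3, an oxygen-sensing hydroxylase, was the most lowered of them at −2.47. Of 14 stress response genes 4 were higher and 2 lower, and 3 and 2 without Lean rats 1 and 2. Atf3 was at 12.9 ± 4.90 and 64.7 ± 7.70 CPM and Xbp1 at 177 ± 18.4 and 95.6 ± 6.32 CPM. Of 16 circadian clock genes 5 were higher, among them Bhlhe41 (7.92 ± 0.556 and 27.0 ± 4.90 CPM), Cry1 and Per2, and 3 lower, Npas2 (8.75 ± 2.01 and 1.73 ± 0.333 CPM), Arntl and Nr1d1. Clock genes vary with the hour of tissue collection and with feeding, and the part of collection time was not tested.

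Lists of other tissues were lower, and several of these calls rest on particular Lean rats. All 17 tested skeletal muscle genes were DEGs, but 1 of 17 was without Lean rats 1 and 2. Acta1, skeletal actin, reached 721 and 1232 CPM in Lean rats 1 and 2 against 2.06 to 2.44 CPM in the other Lean rats, at most 0.0552 CPM in Food matched rats 1 to 4 and 20.7 CPM in Food matched rat 5. All 6 mesothelium genes were lower, and 0 were DEGs without Lean rats 1 and 2. Of 7 smooth muscle genes 4 were lower with all libraries, and 1 was lower and 1 higher without these rats. Of 9 gland and skin epithelium genes 5 were lower and 1 higher, and 3 and 1 without these rats, with Krt8 at 12.1 to 64.5 CPM in Lean and 5.67 to 7.84 CPM in Food matched rats. Of 6 liver and intestine genes 5 were lower. Apob, Apoa4 and Fabp1 stood at 36.2, 44.0 and 41.6 CPM in Lean rat 5 and at 0.147 CPM or less in the other 9 libraries. Without Lean rat 5, Apoa4 and Fabp1 were no longer DEGs while Apob still was, and without Lean rats 1, 2 and 5 none of these 3 was. Alb, the gene for albumin, was at 150, 91.2, 99.2, 95.7 and 113 CPM in Lean rats 1 to 5 and at 11.4, 6.13, 11.2, 8.14 and 13.8 CPM in Food matched rats 1 to 5, with every Food matched rat below every Lean rat (log2 fold change −3.44, standard error 0.19, adjusted p = 6.1e-11, edgeR). Of 9 Schwann cell genes 6 were lower with and without Lean rats 1 and 2. The share of nerve or other neighbouring tissue in the pieces taken was not tested.

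**Figure D5:**
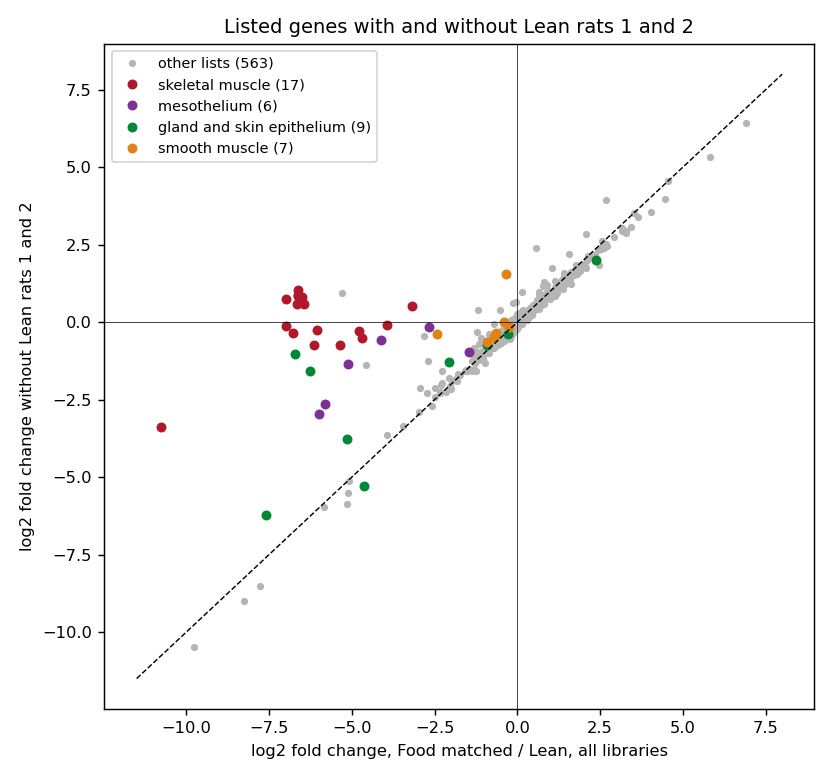
Log2 fold change of Food matched versus Lean for each tested listed gene with all libraries (x axis) and without Lean rats 1 and 2 (y axis), with the line of equality dashed. Most grey genes lie near the line, while 17 skeletal muscle genes (red) move from a median of −6.52 to −0.10 and 6 mesothelium genes (purple) from −4.61 to −1.15.

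The largest changes over all genes were taken among DEGs with and without Lean rats 1 and 2 whose groups did not overlap. Of the increases, that of Mmp12 was the largest. The next increases were those of Klk6, a secreted serine protease, at 0.858 ± 0.611 and 56.1 ± 28.5 CPM (log2 fold change 6.04), Vsig8, an immunoglobulin-domain gene (5.34), Wfdc8, of the protease inhibitor type (5.18), and Tmem72, a membrane protein gene (5.18). Oscar, an activating receptor of osteoclasts and other myeloid cells, was at 0.235, 0.325, 0.591, 0.269 and 0.199 CPM in Lean rats 1 to 5 and at 9.33, 8.39, 6.81, 8.78 and 7.78 CPM in Food matched rats 1 to 5, one of the tightest of these increases (4.67, standard error 0.26, adjusted p = 5.8e-11, edgeR). Ncan, the proteoglycan neurocan, and Ptprn, a phosphatase-like protein of secretory granules, followed at 4.54 and 4.46. The decreases included Myh7, a slow muscle myosin, Actn2, an actinin of muscle, and Apob, each at 0.0339 CPM or less in every Food matched rat. Myh7 reached 36.5 and 63.4 CPM in Lean rats 1 and 2 against 0.0923 to 0.134 CPM in the other Lean rats, and Actn2 reached 8.89 and 18.5 CPM against 0.0336 to 0.0917 CPM. The place of these muscle genes among the largest decreases rests on Lean rats 1 and 2. Myo3a, which encodes an unconventional myosin, was at 2.39, 1.91, 2.92, 2.27 and 2.98 CPM in Lean rats 1 to 5 and at 0.0129 to 0.0370 CPM in Food matched rats (log2 fold change −6.88, standard error 0.52, adjusted p = 1.3e-09, edgeR). Slc22a3, an organic cation transporter that takes up monoamines, was at 55.5, 52.4, 36.2, 44.0 and 44.5 CPM in Lean rats 1 to 5 and at 0.515, 0.789, 0.542, 0.766 and 0.796 CPM in Food matched rats 1 to 5 (−6.08, standard error 0.38, adjusted p = 2.3e-10, edgeR). The Lean rats lay within a narrow range for these genes. They varied more for Ugt8 (−6.73), a galactosyltransferase of myelin lipids, Tmprss2 (−6.26), an epithelial protease, and Hpd (−6.09), of tyrosine breakdown, with Lean values from 0.240 to 4.99, 1.88 to 13.6 and 1.68 to 6.62 CPM.

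The Obese group, which ate freely, was set against the same Lean rats and shares them with the comparison above, so its values are given side by side and no overlap is read from them. Obese versus Lean animals gave 1991 higher (11.3%) and 1938 lower (11.0%) DEGs. Lipid-associated macrophage genes had 12 of 16 higher in Obese and 13 of 16 in Food matched animals. In the same order, lysosome genes had 11 and 15 of 32 higher and cell cycle genes 14 and 14 of 16. Branched-chain amino acid genes had 8 and 14 of 24 lower and mast cell genes 7 and 8 of 11. Some other lists had more DEGs in Obese animals. T cell and NK cell genes had 9 and 6 of 20 higher, chemokine genes 12 and 10 of 23 and cholesterol genes 10 and 9 of 18. Tissue-resident macrophage genes had 6 and 3 of 13 lower and complement genes 5 and 2 of 17. Mean levels in Lean, Food matched and Obese animals were 0.864, 102 and 52.1 CPM for Mmp12 and 11.2, 84.1 and 47.0 CPM for Tnc. They were 791, 101 and 176 CPM for Retn, 62.7, 4.10 and 8.28 CPM for Cish, and 1016, 9006 and 8198 CPM for Scd1. These genes lay further from Lean in Food matched than in Obese animals, whereas some other genes did not. In the same order, Cd74 was at 758, 1790 and 1910 CPM, Ncan at 0.0842, 1.99 and 2.62 CPM, and Lepr at 7.66, 1.82 and 1.56 CPM.

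The direct comparison of Food matched with Obese animals asks what differed at collection after a period of food matching. By the paper's methods the tissue was collected at the end of a study of 10 weeks. By the paper's account of Cmpd 1 intake, the ration was by then close to free intake, so tissue under strong restriction was not measured. By edgeR it gave 0 DEGs (0% of the genes tested). Before adjustment 1887 genes had p under 0.05, and the smallest adjusted p was 0.065. limma-voom called 10 and DESeq2 69, and edgeR called 93 without Food matched rat 5. The gene with the smallest p was Rab15, a small GTPase of endosomal recycling, at 19.0, 19.5, 11.5, 16.4 and 6.67 CPM in Food matched rats 1 to 5 and at 4.37 to 6.38 CPM in Obese rats (log2 fold change 1.46, standard error 0.25, adjusted p = 0.065, edgeR). Rat 5 was near the Obese range and the other Food matched rats were not. Zfp185, Pla2g15, Cyp4f39 and Slc7a6 followed, at log2 fold changes of −1.60, 0.37, −0.67 and 0.49 with the same adjusted p of 0.065 from edgeR. Pla2g15, a lysosomal phospholipase, was at 242 ± 10.2 CPM in Lean, 253 ± 27.2 CPM in Food matched and 197 ± 14.0 CPM in Obese animals, and differed from Lean by a log2 fold change of 0.07 in Food matched rats. Mmp12, Retn, Tnc and Mpo did not pass either, with log2 fold changes of 0.97, −0.81, 0.84 and −0.37 (adjusted p = 0.21, 0.09, 0.15 and 0.16, edgeR), so a difference between the obese groups was not called for genes that stood far from Lean in both. Over all genes, 5.22% were higher and 5.47% lower in Food matched than in Obese animals with p under 0.05 before adjustment. Together these are the 1887 genes above. The limit of 0.05 spans both directions, so neither share is to be compared with it singly. The lists with 5 or more such genes in at least 1 direction, a limit chosen after the values were seen, are given to be read against these shares. Higher genes were 7 of 13 for tissue-resident macrophages, 5 of 16 for lipid-associated macrophages and 8 of 32 for lysosomes, each with 0 lower. Clock genes had 6 of 16 higher and 2 lower, and stress response genes 5 of 14 higher and 2 lower. Lower genes were 9 of 24 for branched-chain amino acid breakdown, 7 of 20 for adipocytes and 6 of 18 for the interferon response, each with 0 higher, and 5 of 12 for growth hormone and IGF with 1 higher. Other matrix genes had 5 of 26 higher and 6 lower. None of these passed the adjusted threshold.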

How the data were processed

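RNA was measured in bulk iWAT by stranded mRNA sequencing, in 5 animals per group, picked at random from the obese groups by the study's methods, while 5 was the whole Lean group. The authors deposited raw counts of reads per gene, with rn6 gene coordinates. The submitters' notes on processing list featureCounts, Subread 1.5.1, STAR 2.5.2 and the human build GRCh38, but the study's methods give rn6 and STAR v2.4.0h for the alignment. Whether counting used strand is not given in the sources used here, so overlapping and antisense genes are uncertain.

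From the deposited counts, all 4 groups (20 libraries) were fitted in 1 quasi-likelihood model with edgeR 4.0.16 (R 4.3.3) after TMM scaling, leaving out 14892 genes with no read in 10 or more libraries. DEGs had a fold change over 1.5 and a Benjamini-Hochberg adjusted p under 0.05. Standard errors are the log2 fold change divided by the square root of F. Each sample is a separate animal. Alternatives were limma-voom (limma 3.58.1), DESeq2 1.42.0, other scalings and filters, leaving out each rat, a replicate block, and leaving out Lean rats 1 and 2. The script was tested on simulated data. Of 624 listed genes 614 were found and 602 tested. Named genes were Lepr, the 8 largest changes in each direction without overlap and with a mean of at least 1 CPM, up to 4 DEGs of smallest adjusted p per list, members given as examples, and the 5 genes of smallest p between Food matched and Obese rats. The members and lists were chosen with earlier results of these data known. Some list members are not reported here.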

Additional observations from a re-analysis of the deposited data

Results flagged for a closer look

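Within each group of 5 rats, the highest or lowest value of 169 named genes was compared with its nearest neighbour, and a gap above 0.71 of the whole range (Dixon's critical value for 5 samples) was taken as an outlying sample. Of 338 gene and group pairs 41 met this (12.1%). The critical value flags about 1 in 20 only for normally distributed values, which CPM need not be. The named genes also include markers of other tissues that single rats carried. No excess over chance is therefore read from this share. The genes are not independent, since those of a tissue move together.

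In Lean rat 2 the outlying values were high for the epithelial genes Krt8 (64.5 CPM), Krt18 (33.7), Cdh1 (21.5), Epcam (19.6) and Tmprss2 (13.6), for the smooth muscle genes Myh11 (386), Mylk (266), Acta2 (217) and Cnn1 (27.4), and for Ppargc1a (2.28), Prdm16 (7.86) and Prox1 (3.39), and low for Hdc (3.49) and Adcy4 (26.2). In Lean rat 1 they were high for Bnip3 (335 CPM) and Tek (159), in Lean rat 4 for Col12a1 (85.5), Pmp2 (18.6) and Ccl4 (1.58), and in Lean rat 5 for the liver and intestine genes Apoa4 (44.0), Fabp1 (41.6) and Apob (36.2).

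In Food matched rat 5 they were high for the muscle genes Acta1 (20.7 CPM), Myh1 (20.7), Ckm (11.6), Mylpf (8.08), Casq1 (2.04) and Pgam2 (1.91) and for Egln3 (2.37), Cox8b (0.370) and Myo3a (0.0370), and low for Gusb (77.8) and Cpt1a (77.0). In Food matched rat 3 they were high for Msln (3.13 CPM), Upk1b (1.19), Upk3b (0.559), Hpd (0.119), Fabp1 (0.102) and Apob (0.0339), and in Food matched rat 2 for F13a1 (210) and Epcam (0.0905). Values under 1 CPM in this paragraph rest on few reads.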

How the results depend on the processing

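The Food matched versus Lean count stayed between 3566 and 4688 DEGs over the alternatives that kept the fold threshold, and was 9220 without it. Food matched versus Obese gave 0 DEGs in the reported fit, 10 by limma-voom (4 higher and 6 lower), 69 by DESeq2 (29 and 40) and 2 with the replicate block (0 and 2). Leaving out single rats gave 0 to 93 in all, 0 to 39 higher and 0 to 54 lower, and the 93 came without Food matched rat 5. The cause of these differences was not tested. With the replicate block, Food matched versus Lean gave 4343 DEGs (2202 higher and 2141 lower). Same-numbered samples correlated between −0.052 and 0.062 in their deviations and 0 of 5 numbers correlated best within themselves, so the numbers do not pair the rats.

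Of 169 named genes, 22 lost their call by limma-voom, 3 by DESeq2 (Apob, Apoa4 and Fabp1) and 19 without Lean rats 1 and 2. In that last fit a further 4 lost it with a changed sign, at log2 fold changes of 0.93 for Cox8b, 0.84 for Myh1, 0.89 for Acta1 and 1.03 for Ckm. Without Lean rats 1, 2 and 5, chosen after seeing the data, they were 0.34, 0.90, 0.89 and 1.01. Without Lean rats 1 and 2 and Food matched rat 5, also chosen after seeing the data, 4076 DEGs were called.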

Other observations

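Outside the lists, 20 genes had the smallest adjusted p of Food matched versus Lean, 4 higher and 16 lower. The first of them was Agt, which encodes angiotensinogen, the precursor of angiotensin. Agt was at 693, 539, 625, 557 and 631 CPM in Lean rats 1 to 5 and at 67.8, 40.9, 55.2, 67.5 and 57.8 CPM in Food matched rats 1 to 5. The groups lay far apart and the log2 fold change was −3.40 (standard error 0.12, adjusted p = 1.2e-13, edgeR with Benjamini-Hochberg adjustment), with −3.38 without Lean rats 1 and 2 and a mean of 64.6 CPM in Obese rats. Acss3, a mitochondrial short-chain acyl-CoA synthetase, had a log2 fold change of −3.13, Ces1d, a carboxylesterase of fat and liver, −1.95, and Lgals12, a galectin of adipocytes, −1.66. The increases included Cyp4b1, a cytochrome P450, at 3.74, and Pla2g7, the platelet-activating factor acetylhydrolase of macrophages, at 3.25.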
